A study of Homo sapiens with 6 samples.

Results

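A group of NF-κB-linked genes that act as ubiquitin-dependent regulators of inflammatory signalling or as survival factors, were followed in HaCaT cells, an immortalised human keratinocyte line. The 10 genes were TNFAIP3, TNFAIP2, TNIP1, TNIP2, CYLD, BIRC2, BIRC3, BCL2A1, RIPK2 and SOD2. Each was taken as the row of the deposited table that carries its symbol. All 10 were found among the 27945 genes of the table. The study asked how p38α, a stress-activated kinase encoded by MAPK14, shapes expression at rest and after interleukin-1α (IL-1α), a cytokine that injured keratinocytes release. It used MAPK14-null cells given IL-1α in PBS for 4 h (2 libraries), MAPK14-null cells given PBS alone for 4 h and called unstimulated (1 library), wild-type cells given IL-1α in PBS for 4 h (2 libraries) and wild-type cells given PBS alone (1 library). All cells are of the same line and were grown in the same serum-containing medium. The labels give neither the IL-1α dose nor the edit made in MAPK14. They do not say whether the null cells are 1 clone or whether replicates were separate cultures, so each p-value measures only the spread between these libraries.

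IL-1α binds its receptor on keratinocytes and starts a cascade in which ubiquitin chains built on signalling proteins recruit the kinases that release NF-κB. NF-κB then raises genes that shut the cascade down, among them TNFAIP3 (A20), an enzyme that edits and binds ubiquitin chains, and TNIP1, an adaptor that brings TNFAIP3 to those chains. It also raises genes that keep the stimulated cell alive, such as the ubiquitin ligase BIRC3, the BCL2 relative BCL2A1 and the mitochondrial superoxide dismutase SOD2.

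Before the results, the libraries were compared. Depth, rebuilt from the values, ran from 16294047 to 34967699 reads, deepest in the unstimulated knockout library. The RPKM values (reads scaled to exon length and library depth) of the unstimulated wild-type library summed to 403875, against 335291 to 365365 in the other 5, so that library stood apart in its make-up. Every difference below between IL-1α and unstimulated cells rests on 1 unstimulated library per genotype. MAPK14 was still transcribed under both labels, at 10.99 and 7.41 RPKM in knockout cells with IL-1α, 11.3 RPKM in unstimulated knockout cells, 13.3 and 14.8 RPKM in wild-type cells with IL-1α and 14.4 RPKM in unstimulated wild-type cells. The difference under IL-1α, -0.61 ± 0.22 on the log2 scale, did not pass (limma, adjusted p = 0.301), and the RNA level does not by itself check the knockout label. All 11 keratinocyte markers (KRT14 the highest) were present, while the fibroblast list summed to at most 2.59 RPKM in any library. In the leukocyte list only CD68 reached 1 RPKM, and LYZ was at 0 in all 6 libraries. In the endothelial list only CDH5 reached 1 RPKM and PECAM1 was at 0, and in the melanocyte list only MITF did and TYR was at 0. In such bulk libraries a smaller number of responding cells and less RNA per cell cannot be told apart.

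The stretches before the transcription starts were searched for short motifs, and not all members held one. For 9 of the 10 members RefSeq (GRCh38.p14) gave 16 promoter windows, each from 250 bases before to 50 bases after an annotated start, and RIPK2 was not among them. TNFAIP3 and BIRC3, the regulators with large responses described below, are shown with BIRC2, the neighbour and relative of BIRC3 with a smaller response. Capitals mark matches to the κB consensus, the pattern that NF-κB dimers are known to bind, and each stretch is the 250 bases that end at the start.
TNFAIP3, chr6:137867009-137867258, plus strand: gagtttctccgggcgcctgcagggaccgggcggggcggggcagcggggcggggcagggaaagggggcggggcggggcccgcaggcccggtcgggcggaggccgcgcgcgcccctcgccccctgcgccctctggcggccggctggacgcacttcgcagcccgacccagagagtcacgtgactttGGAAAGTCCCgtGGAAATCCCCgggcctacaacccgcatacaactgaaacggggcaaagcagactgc
BIRC3, chr11:102317234-102317483, plus strand: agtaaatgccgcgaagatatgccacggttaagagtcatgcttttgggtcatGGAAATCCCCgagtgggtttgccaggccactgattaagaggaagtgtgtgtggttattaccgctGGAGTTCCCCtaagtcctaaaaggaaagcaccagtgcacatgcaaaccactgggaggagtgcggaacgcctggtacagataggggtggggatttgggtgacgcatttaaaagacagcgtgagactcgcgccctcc
BIRC2, chr11:102346964-102347213, plus strand: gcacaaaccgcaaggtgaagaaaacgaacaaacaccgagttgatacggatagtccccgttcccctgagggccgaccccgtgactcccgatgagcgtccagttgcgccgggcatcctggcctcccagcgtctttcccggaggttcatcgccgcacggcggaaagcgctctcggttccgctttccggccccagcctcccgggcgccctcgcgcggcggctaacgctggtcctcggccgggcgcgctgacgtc

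TNFAIP3 held a pair of consensus matches that begin at -67 and -55, in bases from its start, both on the minus strand. BIRC3 held a pair on the minus strand that begin at -199 and -135. Its more distant match has the same letters as the nearer TNFAIP3 match. Neither of the 2 BIRC2 windows held one. Shorter stretches of 3 more members are shown because their matches allow a comparison with TNFAIP3. Capitals mark the κB consensus in TNIP1 and CYLD, and in TNFAIP2 the shorter κB-type motif GGNNNTTCC.
TNIP1, chr5:151081037-151081106, minus strand: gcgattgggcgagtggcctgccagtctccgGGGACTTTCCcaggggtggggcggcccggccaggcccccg
CYLD, chr16:50741867-50741936, plus strand: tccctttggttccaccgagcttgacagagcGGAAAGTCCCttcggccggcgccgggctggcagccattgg
TNFAIP2, chr14:103123334-103123402, plus strand: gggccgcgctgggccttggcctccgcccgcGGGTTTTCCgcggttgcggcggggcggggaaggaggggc

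Read on the strand that carries the match, TNIP1, CYLD and the more distant TNFAIP3 match have the same letters. Searched on both strands, the κB consensus lay in the windows of 4 of 9 members (TNFAIP3, TNIP1, BIRC3 and CYLD), and in 13.3% of all 27305 genes with a window. The motif GGNNNTTCC, which shares letters with the consensus and can overlap its matches, lay in those of 5 of 9 members and 23.5% of all genes. The AP-1 motif TGANTCA, bound by dimers of JUN and FOS proteins, lay in 0 of the 16 member windows and in 7.71% of all 35116 windows. No match to the κB patterns was found in the windows of BCL2A1, SOD2, TNIP2 or BIRC2, which says nothing of sites elsewhere. The longer stretches above were chosen by response, and matches did not follow response size throughout. BCL2A1 and SOD2 had larger responses, given below, than CYLD, which held the consensus. A match is a description of letters, and binding was not measured here.

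**Figure D1:**
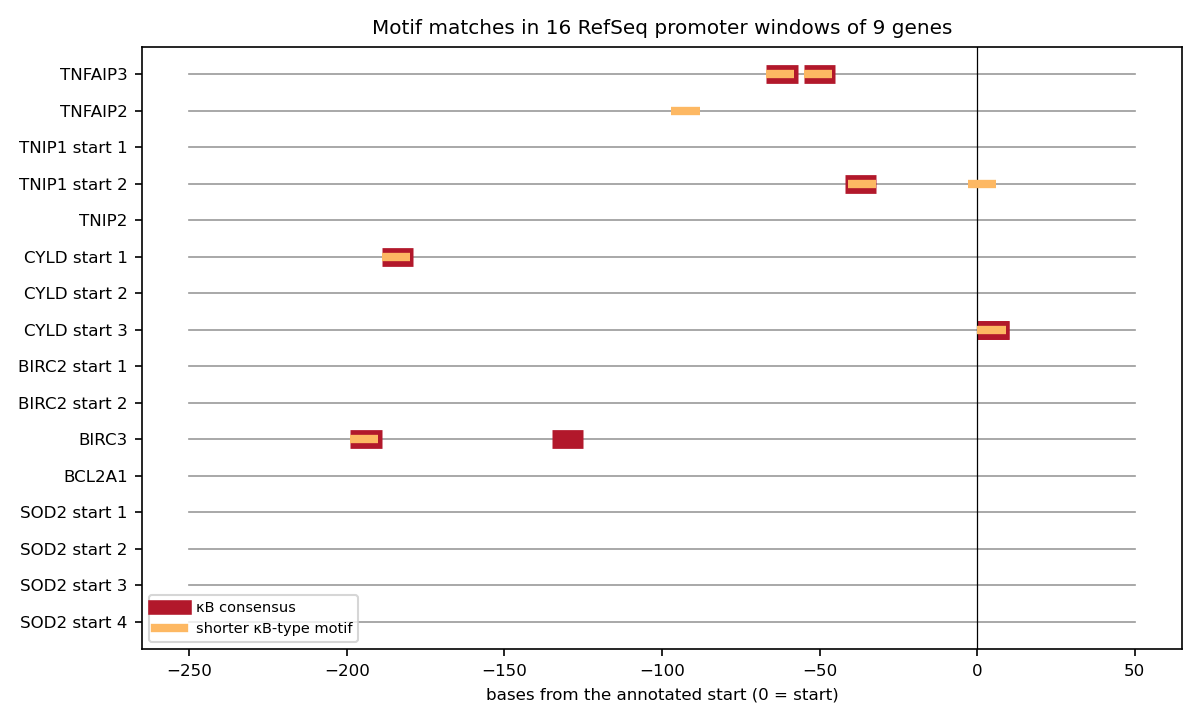
Position of motif matches (x axis: bases from the annotated start) in the 16 RefSeq windows of 9 members, 1 row per annotated start. Wide bars are matches to the κB consensus and thin bars to GGNNNTTCC, and TNFAIP3 and BIRC3 are the members with 2 separate consensus matches before the start.

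All 10 members were higher in every IL-1α library than in the unstimulated library of the same genotype, in knockout and in wild-type cells alike. For all genes tested, those that reached 1 RPKM somewhere among the 6 libraries, the share lying above in this way was 27.8% in knockout and 27.5% in wild-type cells. The responses nevertheless covered a wide range, from BCL2A1, near 0 before stimulation, to TNIP2, with little difference. Marker lists of other cell types differed with the stimulus in part, and not all in the same direction. The leukocyte list, nearly all CD68, summed to 6.21 and 7.70 RPKM in knockout cells with IL-1α, against 4.88 RPKM unstimulated, and to 14.8 and 12.2 RPKM in wild-type cells with IL-1α, against 6.31 RPKM unstimulated. The endothelial list, mainly CDH5, summed to 10.5 and 1.90 RPKM in knockout cells with IL-1α, against 3.24 RPKM unstimulated, and to 11.51 and 11.955 RPKM in wild-type cells with IL-1α, against 1.83 RPKM unstimulated. The melanocyte list summed to 4.81 and 3.64 RPKM in knockout cells with IL-1α, against 4.62 RPKM unstimulated. In wild-type cells it summed to 2.98 and 4.17 RPKM, against 3.56 RPKM. The fibroblast list summed to 1.17 and 0.756 RPKM in knockout cells with IL-1α, against 1.29 RPKM unstimulated. In wild-type cells it summed to 1.76 and 1.67 RPKM, against 2.59 RPKM. The part of these markers in the responses was not tested. BCL2A1 reached 1 RPKM only with IL-1α, so it had to differ to enter the test. It therefore adds nothing to the count of 10 set against all genes above, and it is left out of the counts and medians of responses that follow here. The other 9 members, which reached 1 RPKM in every library, had a median log2 difference between IL-1α and unstimulated cells of 1.18 in knockout cells, against -0.02 over all 12925 genes tested. In wild-type cells their median was 1.53, against -0.14 over all genes. Because all genes lay 0.14 below 0 in wild-type cells, the wild-type differences are larger by that amount relative to the typical gene. Differences are on the log2(RPKM + 0.5) scale and were tested with limma, with Benjamini-Hochberg adjustment over all genes and a threshold of 0.05. In knockout cells 1 of these 9 members passed, against 0.0696% of all genes called higher. In wild-type cells 3 of the 9 passed, against 0.201% of all genes called higher. At an unadjusted p below 0.05, 7 of the 9 were higher in knockout cells, against 2.53% of all genes, and 8 of the 9 in wild-type cells, against 4.69% of all genes.

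**Figure D2:**
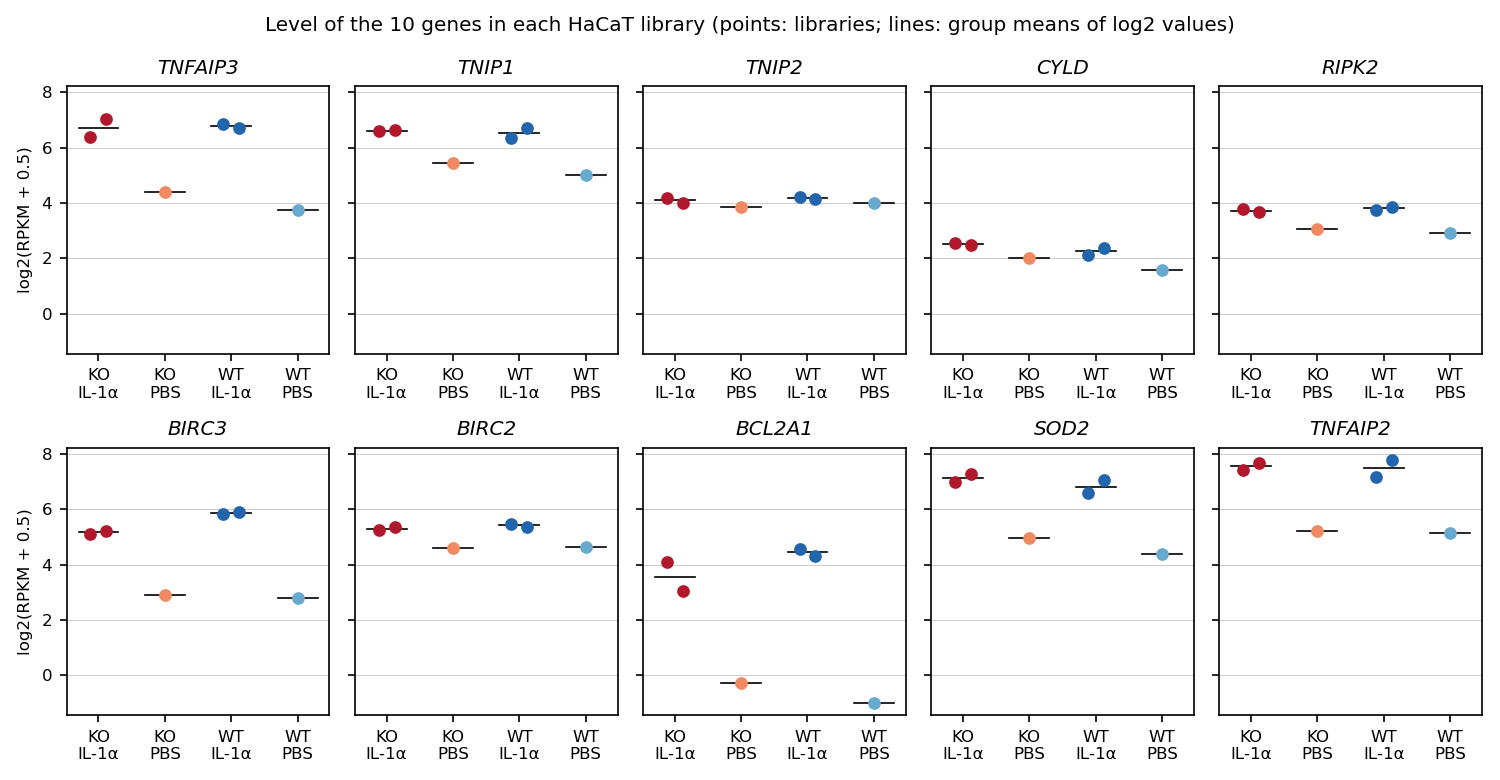
Level of each member as log2(RPKM + 0.5) (y axis) in the 6 libraries, grouped as knockout with IL-1α, knockout with PBS, wild type with IL-1α and wild type with PBS. Points are libraries and lines are means of the log2 values, and in all 10 panels both IL-1α points lie above the PBS point of the same genotype.

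TNFAIP3, the ubiquitin-editing brake on NF-κB signalling (chromosome 6, 138188325 to 138204451, hg19), measured 83.3 and 129.8 RPKM in knockout cells with IL-1α, against 20.7 RPKM in unstimulated knockout cells. In wild-type cells it measured 115.6 and 103.6 RPKM with IL-1α, against 12.8 RPKM without. The IL-1α libraries of the genotypes overlapped, and the unstimulated wild-type library was the lowest of the 6. The log2 difference was 2.30 ± 0.29 (SE) in knockout cells (limma, adjusted p = 0.0928) and 3.05 ± 0.29 in wild-type cells (adjusted p = 0.0297), so TNFAIP3 rose by the test in wild type. The knockout pair differed by 1.56-fold, more than the wild-type pair at 1.12-fold. A non-coding gene on the opposite strand, LOC100130476, overlaps the start of TNFAIP3 and reached at most 4.20 RPKM, and whether the counting used strand is not stated.

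TNIP1, the adaptor that links TNFAIP3 to ubiquitin chains (chromosome 5, 150409504 to 150444692), measured 96.1 and 98.5 RPKM in knockout cells with IL-1α, against 42.7 RPKM unstimulated. In wild-type cells it measured 80.5 and 105.0 RPKM with IL-1α, against 31.4 RPKM unstimulated. It was the most abundant of the 10 in unstimulated knockout cells. Its log2 difference was 1.18 ± 0.22 in knockout cells (limma, adjusted p = 0.283) and 1.53 ± 0.22 in wild-type cells (adjusted p = 0.0672), and it passed in neither. TNIP2, the related adaptor that also binds TNFAIP3 (chromosome 4, 2743387 to 2757752), measured 17.8 and 15.7 RPKM in knockout cells with IL-1α and 14.1 RPKM without. Wild-type cells had 18.2 and 17.2 RPKM with IL-1α and 15.6 RPKM without. Its differences of 0.23 and 0.18 were the smallest among the 10 in knockout and in wild-type cells. The 95% intervals of -0.24 to 0.71 in knockout and -0.29 to 0.66 in wild-type cells leave room for a moderate change either way.

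CYLD, a deubiquitinase that removes signalling chains (chromosome 16, 50775961 to 50835846), was the least abundant member with IL-1α. It measured 5.43 and 5.04 RPKM in knockout cells with IL-1α, against 3.49 RPKM unstimulated. Wild-type cells had 3.90 and 4.70 RPKM with IL-1α and 2.46 RPKM unstimulated. The log2 differences of 0.52 ± 0.24 in knockout cells (limma, adjusted p = 1) and 0.70 ± 0.24 in wild-type cells (adjusted p = 0.219) did not pass. RIPK2, the kinase that carries signals from the bacterial sensors NOD1 and NOD2 (chromosome 8, 90769975 to 90803292), measured 13.1 and 12.4 RPKM in knockout cells with IL-1α, against 7.86 RPKM without. Wild-type cells had 13.1 and 14.1 RPKM with IL-1α and 7.14 RPKM without. Its differences, 0.66 ± 0.20 in knockout cells (adjusted p = 0.921) and 0.88 ± 0.20 in wild-type cells (adjusted p = 0.142), did not pass either.

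BIRC3 (cIAP2), a ubiquitin ligase that restrains cell death at TNF-family receptors (chromosome 11, 102188181 to 102210135), was the member called in both genotypes. It measured 33.8 and 36.7 RPKM in knockout cells with IL-1α, against 6.96 RPKM unstimulated, and 55.8 and 59.3 RPKM in wild-type cells with IL-1α, against 6.43 RPKM unstimulated. The knockout IL-1α libraries both lay below the wild-type ones, while the unstimulated libraries were close. BIRC3 rose by a log2 difference of 2.26 ± 0.19 in knockout cells (limma, adjusted p = 0.0387) and 3.07 ± 0.19 in wild-type cells (adjusted p = 0.00773).

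BIRC2 (cIAP1), the related ligase whose gene begins 7777 bases beyond the end of BIRC3 (chromosome 11, 102217913 to 102249401), measured 37.8 and 40.1 RPKM in knockout cells with IL-1α, against 23.5 RPKM unstimulated. Wild-type cells had 43.8 and 40.7 RPKM with IL-1α, against 24.1 RPKM unstimulated. Its log2 differences were 0.72 ± 0.18 in knockout cells (limma, adjusted p = 0.71) and 0.79 ± 0.18 in wild-type cells (adjusted p = 0.144). The ratio of BIRC3 to BIRC2 RPKM, which is per length of exon, was 0.894 and 0.916 in knockout cells with IL-1α and 0.296 in unstimulated knockout cells. It was 1.27 and 1.46 in wild-type cells with IL-1α and 0.267 in unstimulated wild-type cells. BIRC2 was thus the more abundant of the pair in both unstimulated libraries and in the knockout IL-1α libraries, and BIRC3 in the wild-type IL-1α libraries. The ratio of TNIP1 to TNIP2 was 5.40 and 6.27 in knockout cells with IL-1α, against 3.02 unstimulated. It was 4.42 and 6.09 in wild-type cells with IL-1α, against 2.02 unstimulated, and the IL-1α values of the genotypes overlapped.

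**Figure D3:**
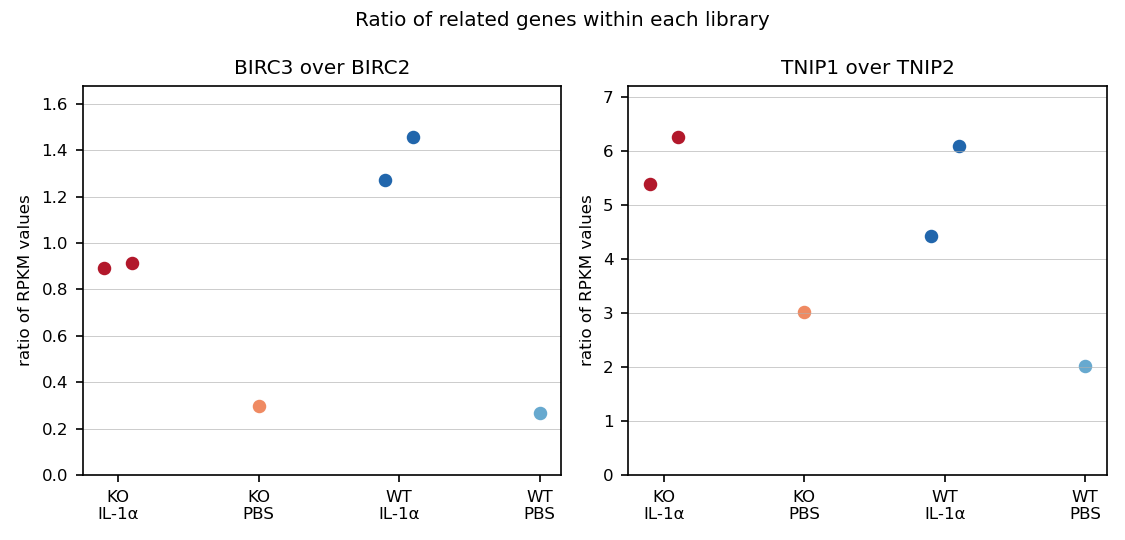
Ratio of RPKM values (y axis, from 0) of BIRC3 to BIRC2 and of TNIP1 to TNIP2 in each library, grouped by genotype and stimulus with knockout at the left. For BIRC3 to BIRC2 the knockout IL-1α points lie at 0.894 and 0.916 and the wild-type IL-1α points at 1.27 and 1.46.

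BCL2A1, a BCL2 relative that blocks mitochondrial cell death (chromosome 15, 80253232 to 80263643), had the largest response of the 10 in both genotypes. It measured 16.3 and 7.80 RPKM in knockout cells with IL-1α, against 0.324 RPKM (10 reads) unstimulated. In wild-type cells it measured 23.4 and 19.6 RPKM with IL-1α and had 0 reads unstimulated. Against the level that 3 reads would give in that library, BCL2A1 was at least 106-fold higher with IL-1α in wild-type cells. In knockout cells the ratio of reads was 35.3 (exact 95% interval 19.0 to 74.0, counting error only). The fitted log2 difference was 3.84 ± 0.42 in knockout cells (limma, adjusted p = 0.0759) and 5.45 ± 0.42 in wild-type cells (adjusted p = 0.0134), and these p-values are a description, since the IL-1α libraries brought the gene into the test. The wild-type size depends on the handling of 0 reads, at 4.48 with a pseudocount of 1, 7.75 with 0.1 and 9.35 with voom weights. It no longer passed with voom weights (adjusted p = 0.1) or with no filter (adjusted p = 0.167). The knockout pair differed by 2.10-fold, the widest gap of any member in either pair.

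SOD2, the manganese enzyme that clears superoxide in mitochondria (chromosome 6, 160100096 to 160114360), measured 125.6 and 152.9 RPKM in knockout cells with IL-1α, against 30.7 RPKM unstimulated. Wild-type cells had 94.97 and 133.2 RPKM with IL-1α, against 20.3 RPKM unstimulated. SOD2 rose in wild-type cells by 2.44 ± 0.27 (limma, adjusted p = 0.0446) and differed by 2.16 ± 0.27 in knockout cells (adjusted p = 0.0928). TNFAIP2, a protein linked to membrane protrusions and the exocyst (chromosome 14, 103592664 to 103603776), was the most abundant member with IL-1α in both genotypes. It measured 171.2 and 204.8 RPKM in knockout cells with IL-1α, against 36.8 RPKM unstimulated, and 141.9 and 221.2 RPKM in wild-type cells with IL-1α, against 34.5 RPKM unstimulated. The differences were nearly equal, 2.33 ± 0.30 in knockout cells (adjusted p = 0.0928) and 2.35 ± 0.30 in wild-type cells (adjusted p = 0.0609), and neither passed.

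The calls were sensitive to single libraries and, for some members, to the settings. Without wild-type IL-1α replicate 1 the adjusted p of BIRC3, TNFAIP3, SOD2 and BCL2A1 in wild-type cells was 0.441 each, and without replicate 2 it was 0.734 each, while the log2 difference of BIRC3 stayed between 3.02 and 3.11 and that of TNFAIP3 between 2.97 and 3.13. The wild-type call of SOD2 was lost with a pseudocount of 0.1 (limma, adjusted p = 0.0553) and without the variance trend (adjusted p = 0.0583). It was also lost with quantile normalization (adjusted p = 0.0558) and with no filter (adjusted p = 0.199). With no filter TNFAIP3 in wild-type cells was lost too (adjusted p = 0.179). The BIRC3 call in knockout cells was lost without knockout IL-1α replicate 1 (adjusted p = 0.117), without replicate 2 (adjusted p = 0.203) and without either wild-type one (adjusted p = 1). In these fits the lone library is assumed to vary like the remaining pair.

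**Figure D4:**
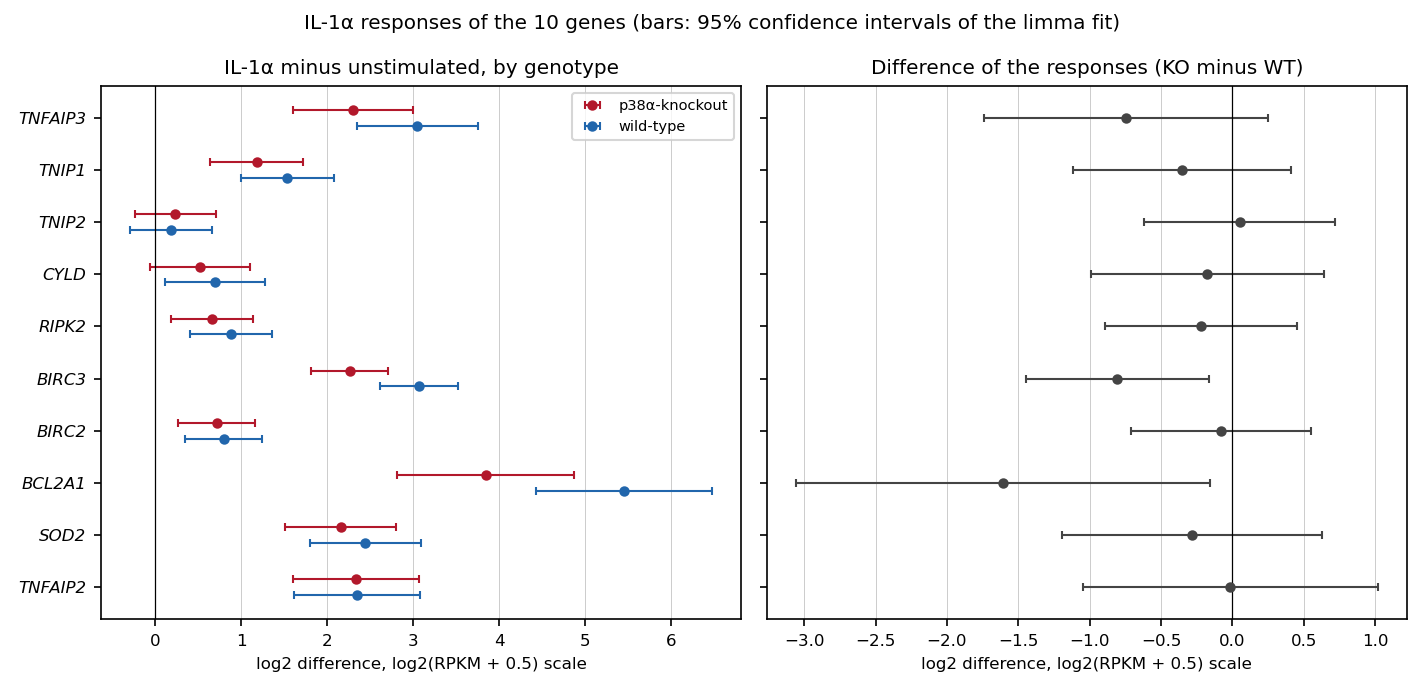
Left, log2 difference between IL-1α and unstimulated cells for each member, knockout above wild type. Right, the knockout response minus the wild-type response. Points are limma estimates and bars their 95% confidence intervals. In the right panel the intervals of BIRC3 (-1.45 to -0.17) and BCL2A1 (-3.06 to -0.16) do not reach 0, but neither passed after adjustment over all genes.

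Under IL-1α the knockout and wild-type cells had similar levels of most members, and BIRC3 and BCL2A1 were the ones furthest apart. BIRC3 averaged 35.3 ± 2.05 RPKM in knockout cells and 57.6 ± 2.52 RPKM in wild-type cells (SD, n = 2 each), a log2 difference of -0.70 ± 0.15 (limma, adjusted p = 0.179). BCL2A1 averaged 12.1 ± 6.05 RPKM in knockout cells and 21.5 ± 2.69 RPKM in wild-type cells, a difference of -0.89 ± 0.35 (adjusted p = 0.319). The size for BCL2A1 was -1.40 without knockout replicate 1 and -0.38 without knockout replicate 2. The other 8 lay between -0.11 (BIRC2) and 0.30 (SOD2). Some cell type marker lists differed between the genotypes too. The keratinocyte list summed to 3131 and 3439 RPKM in knockout cells with IL-1α, against 4787 and 4297 RPKM in wild-type cells. The leukocyte, endothelial and fibroblast sums given above were also lower in the knockout IL-1α libraries, while the melanocyte sums of the genotypes overlapped. The part of these differences in the levels of BIRC3 and BCL2A1 was not tested. Of the 9 members other than BCL2A1, 1 (BIRC3) stood at an unadjusted limma p below 0.05, against 14.9% of all genes. BCL2A1 stood below it too, but its IL-1α libraries brought it into the test, so it is not counted. After adjustment none of the 10 passed, against 0.155% of all genes called in either direction. With voom, which weights values made from the rebuilt reads and was run without the variance trend, 0 members passed as well. The knockout IL-1α libraries both lay below both wild-type ones for BIRC2 and BIRC3, as for 16.3% of all genes. They did so for BCL2A1 too, which adds nothing to a count set against all genes. They both lay above for 1 member (CYLD), as for 32.4% of all genes. After median-of-ratios rescaling, which removed a median of 0.09 over all genes, 5 members with BCL2A1 included lay below, against 24.2% of all genes. RIPK2 and TNIP2 were added, and 0 lay above.

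The 95% intervals show what sizes the 4 libraries leave possible. For TNFAIP3 the interval of knockout minus wild type ran from -0.65 to 0.50 around -0.07, and for TNFAIP2 from -0.52 to 0.68 around 0.08. The narrowest intervals were those of BIRC2, -0.48 to 0.25, and BIRC3, -1.07 to -0.33. Signs of differences this near 0 are not fixed: TNFAIP2 and TNIP1, at 0.08 each, were -0.025 and -0.023 after median-of-ratios rescaling.

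The interaction, the knockout response minus the wild-type response, tests the difference between the responses. The sign was negative for 9 of the 10 members, with a median of -0.25, against a median of 0.10 over all genes, and for 10 of 10 after median-of-ratios rescaling. Without BCL2A1 it was negative for 8 of 9, with a median of -0.22. Over all genes it was negative for 5115 of 12925, and for 6720 of 12925 after the rescaling. All members share the same unstimulated libraries, so their signs are not independent. The responses of BIRC3 (-0.81 ± 0.26, limma, adjusted p = 0.966), TNFAIP3 (-0.75 ± 0.41, adjusted p = 0.966) and BCL2A1 (-1.61 ± 0.60, adjusted p = 0.966) had the largest differences. No member passed, against 0% of all genes (0 of 12925). Voom weights also gave 0 calls. Of the 9 members other than BCL2A1, 1 (BIRC3) stood at an unadjusted limma p below 0.05, against 4.39% of all genes (567). BCL2A1 stood below it too, but its IL-1α libraries brought it into the test, so it is not counted. The value for BCL2A1 rests on a wild-type library with 0 reads and was -3.00 with a pseudocount of 0.1, -1.26 with 1 and -4.33 with voom weights. That of TNFAIP3 was -0.43 without knockout replicate 1 and -1.07 without knockout replicate 2.

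For BIRC3 and TNFAIP3, whose interactions did not pass, the libraries that lay apart were not the same ones. For BIRC3 the unstimulated libraries were nearly level, at 6.96 RPKM in knockout and 6.43 RPKM in wild-type cells, and the IL-1α libraries were apart. For TNFAIP3 the IL-1α means were nearly level, at 106.6 ± 32.9 RPKM in knockout and 109.6 ± 8.50 RPKM in wild-type cells (SD, n = 2 each), and the single unstimulated libraries were apart, at 20.7 and 12.8 RPKM. TNFAIP2 (-0.01, 95% interval -1.05 to 1.02), BIRC2 (-0.08, -0.71 to 0.55) and TNIP2 (0.05, -0.62 to 0.72) had differences near 0 with intervals that do not show equal responses.

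Without stimulation, knockout cells had somewhat more TNFAIP3, SOD2, CYLD and TNIP1 RNA than wild-type cells. No member that reached 1 RPKM in these libraries was 2-fold apart. TNFAIP3 stood at 20.7 RPKM in knockout and 12.8 RPKM in wild-type cells, a ratio of 1.62 (exact 95% interval of the read ratio 1.51 to 1.74). SOD2 stood at 30.7 RPKM in knockout and 20.3 RPKM in wild-type cells (ratio 1.51, 1.34 to 1.71). CYLD stood at 3.49 and 2.46 RPKM in knockout and wild-type cells (ratio 1.42, 1.26 to 1.61), and TNIP1 at 42.7 and 31.4 RPKM (ratio 1.36, 1.27 to 1.45). For BIRC3 (1.08, 0.993 to 1.18), RIPK2 (1.10, 0.962 to 1.26), BIRC2 (0.975, 0.902 to 1.05) and TNIP2 (0.91, 0.809 to 1.02) the interval included 1. TNFAIP2 stood at a ratio of 1.07 (1.02 to 1.12), and BCL2A1 at 10 reads in knockout and 0 in wild-type cells, with no fold given. These intervals cover counting error alone, and with 1 library per genotype no p-value can be given. At least 2-fold apart with at least 1 RPKM were 0 of the 10 members, against 6.53% of all genes. With a trend with transcript length removed, the log2 difference of CYLD moved to 0.08, against 0.43 as deposited, and that of SOD2 to 0.95, against 0.59. The direction turned for TNFAIP2 (-0.044, against 0.09 as deposited), BIRC3 (-0.19, against 0.11), TNIP2 (0.07, against -0.13) and BIRC2 (0.04, against -0.04).

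The order of the members by level, on the RPKM scale, also changed with the stimulus. In unstimulated knockout cells TNIP1, TNFAIP2 and SOD2 led, at 42.7, 36.8 and 30.7 RPKM, and in unstimulated wild-type cells TNFAIP2, TNIP1 and BIRC2 did, at 34.5, 31.4 and 24.1 RPKM. With IL-1α the order TNFAIP2, SOD2, TNFAIP3, TNIP1 held for the means of both genotypes, although the libraries of neighbouring genes overlapped in places. SOD2 and TNFAIP3 overlapped in knockout and in wild-type cells, and so did TNFAIP3 and TNIP1. BIRC3 held the sixth place in knockout and the fifth in wild-type cells with IL-1α, against the eighth in both unstimulated libraries.

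Other genes of the same processes had smaller median differences. The members and the lists were chosen with earlier results of these data known, and the lists leave out the members. The smaller medians are therefore a description and not a test. Of 35 listed parts of the ubiquitin machinery of NF-κB signalling, 33 were tested, and 0 passed in any of the 4 limma comparisons. Their median response was 0.16 in knockout and 0.13 in wild-type cells, against medians over all genes of -0.02 and -0.14. ZC3H12A, an RNase that cuts cytokine mRNA, had the largest response of that list in both genotypes. It measured 23.9 and 39.8 RPKM in knockout cells with IL-1α, against 4.37 RPKM unstimulated (2.69, limma, adjusted p = 0.0928), and 40.6 and 33.8 RPKM in wild-type cells with IL-1α, against 7.03 RPKM unstimulated (2.32, adjusted p = 0.0637). The receptor adaptor TRAF5 had the largest knockout against wild-type difference of the list under IL-1α, 1.04 ± 0.26 (adjusted p = 0.199), at 2.32 and 3.64 RPKM in knockout and 1.11 and 1.20 RPKM in wild-type cells. TNIP3, the third relative of TNIP1 and TNIP2, was not tested, since it reached at most 0.761 RPKM.

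Of 28 listed apoptosis regulators 25 were tested and 0 passed in any limma comparison, with median responses of 0.28 in knockout and 0.16 in wild-type cells. CFLAR, the decoy that blocks caspase-8 activation, measured 16.8 and 18.1 RPKM in knockout cells with IL-1α, against 6.37 RPKM unstimulated (1.38, limma, adjusted p = 0.139). In wild-type cells it measured 23.3 and 20.0 RPKM with IL-1α, against 7.51 RPKM unstimulated (1.46, adjusted p = 0.0637). Both knockout IL-1α libraries of CFLAR lay below both wild-type ones, as for 16.3% of all genes. CFLAR was also lower in unstimulated knockout than in unstimulated wild-type cells. BBC3 (PUMA), which promotes apoptosis, had the largest response of the list in knockout cells, 1.40 ± 0.35 (adjusted p = 0.651). BIK, another death-promoting BCL2 relative, was lower in knockout than wild-type IL-1α libraries, at 18.7 and 15.8 RPKM against 33.7 and 27.9 RPKM (-0.82 ± 0.18, adjusted p = 0.179). BCL2 itself was not tested, as it reached at most 0.988 RPKM.

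The other enzymes that clear superoxide and peroxide had smaller or negative differences. Of 18 listed, 16 were tested and 0 passed in any limma comparison. In knockout cells 7 were higher and 9 lower with IL-1α (median -0.06), and in wild-type cells 1 was higher and 15 were lower (median -0.52). The wild-type median was -0.11, with 7 higher and 9 lower, once a trend with transcript length was removed. The mitochondrial peroxidase PRDX3 measured 78.1 and 101.6 RPKM in knockout cells with IL-1α, against 77.0 RPKM unstimulated, and 66.8 and 55.1 RPKM in wild-type cells with IL-1α, against 108.4 RPKM unstimulated. Its interaction of 1.04 ± 0.34 did not pass (limma, adjusted p = 0.966). PRDX1 was the gene of these lists at least 2-fold apart without stimulation, at 309.4 RPKM in knockout and 677.2 RPKM in wild-type cells. The values of PRDX3 and PRDX1 are given with the length trend left in. The median interaction of this list was 0.48 as deposited and 0.06 with that trend removed. SOD3 was listed at 0 in every library.

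**Figure D5:**
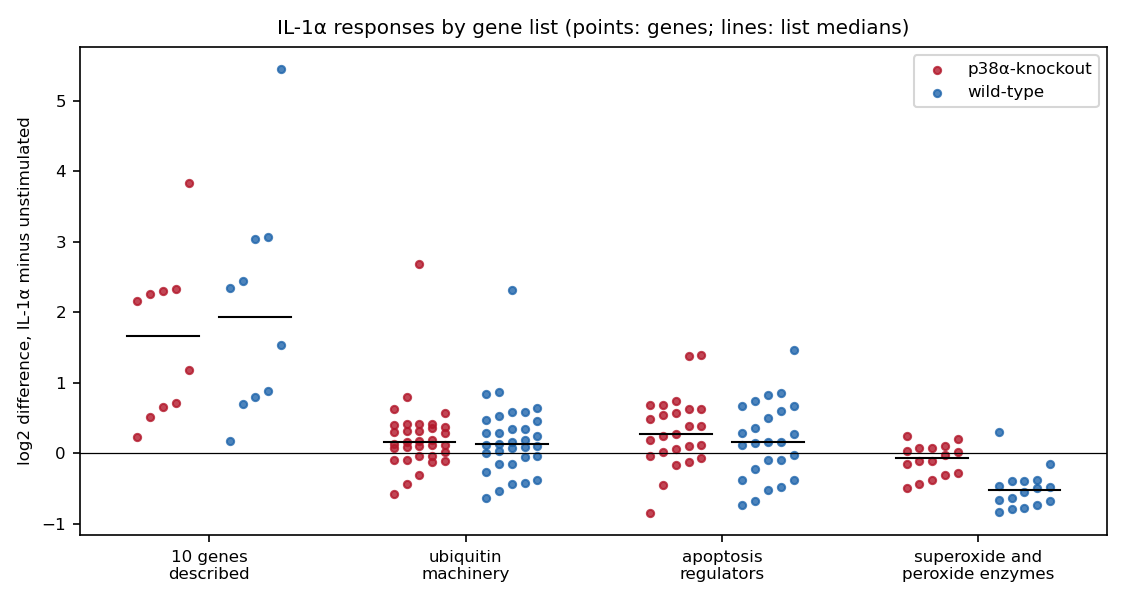
Log2 difference between IL-1α and unstimulated cells (y axis) for the genes tested in each list, knockout at the left of each pair. Points are genes and lines list medians: 1.67 and 1.94 for the 10 members (BCL2A1 included), 0.16 and 0.13 for the ubiquitin machinery, 0.28 and 0.16 for apoptosis regulators, -0.06 and -0.52 for superoxide and peroxide enzymes, in knockout and wild-type cells. The last list's wild-type median was -0.11 after removal of the length trend.

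Genes with the pattern most like each member were sought among 8884 others with a group mean of at least 5 RPKM, by the root mean square difference of log2(RPKM + 0.5) profiles centred over the 6 libraries. CSF2, which encodes the growth factor GM-CSF, was nearest to TNFAIP3 (0.21), TNFAIP2 (0.21) and SOD2 (0.22). Unstimulated, CSF2 stood at only 0.844 RPKM in knockout and 0.537 RPKM in wild-type cells. The 0.5 added before the log2 shrinks responses from such low values, also for WNT4 below. The second nearest were ZC3H12A for TNFAIP3 (0.39), NFKBIA, the main NF-κB inhibitor, for TNFAIP2 (0.36) and the cytokine subunit IL23A for SOD2 (0.34). BIRC3 was nearest to WNT4 (0.23), a secreted signal, and OLR1 (0.26), a scavenger receptor. WNT4 measured 3.09 and 3.52 RPKM in knockout cells with IL-1α, against 0.609 RPKM unstimulated. In wild-type cells WNT4 measured 6.08 and 6.33 RPKM with IL-1α, against 0.613 RPKM unstimulated. BCL2A1 had no close match, with PI3 (0.48) and SERPINA3 (0.63) nearest. TNIP1 was nearest to ICOSLG (0.06) and CSF1 (0.11), CYLD to KLF6 (0.08) and IFNAR2 (0.08), and RIPK2 to ABTB2 (0.06) and TDRD7 (0.07). BIRC2 was nearest to SLC37A1 (0.06) and CD82 (0.07), and TNIP2 to SLCO3A1 (0.03) and ACOT9 (0.05). These distances describe 6 libraries and carry no test.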

How the data were processed

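Bulk mRNA of 6 HaCaT libraries was sequenced from a stranded poly-A kit, per the labels' protocols. The submitters' processing notes name bcl2fastq (2.20.0.422), STAR and HOMER (versions not given in the sources used here) and hg19. Per the file headers, the deposited values are RPKM made by the authors with HOMER's analyzeRepeats over exons, 1 line per gene. They were used as deposited. Reads were rebuilt from RPKM of 0.02 to 1 (97.9% to 99.8% whole within 0.1 read) and served only for counting intervals, the 3-read floor and voom. The 12925 genes that reached 1 RPKM in any library entered limma (3.58.1, run in R 4.3.3) on the log2(RPKM + 0.5) scale. The model had a coefficient for each group, a variance trend and Benjamini-Hochberg adjustment. The 2 residual degrees of freedom come from the IL-1α pairs (4.2 prior). The fit was checked on simulated data. The members and gene lists were chosen with earlier results of these data known. Named genes were the 10 members, MAPK14, up to 4 passing genes of each list (else the 2 furthest from 0) and the 2 genes most like each member. From these, those the text turns on are given. Promoters are RefSeq's, on GRCh38.p14, and their coordinates are not those of hg19. Protein sequences were not used here.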

Additional observations from a re-analysis of the deposited data

How the results depend on the processing

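The direction of all 10 IL-1α responses held in both genotypes under all 13 alternatives. After each rescaling 10 members still lay above their unstimulated library, as did 29.1% to 32.1% of all genes in knockout and 39.1% to 40.2% in wild-type cells. BCL2A1, which entered the test through its IL-1α libraries, adds nothing to that count. Counts of calls moved more. Fits that leave out 1 IL-1α library have a single pair left to measure the spread, so their calls are not counted. Members called in wild-type cells (4 with BCL2A1 included) were 6 with at least 1 RPKM in 2 libraries or the length trend removed (TNFAIP2 and TNIP1 gained). They were 5 with median-of-ratios rescaling (TNFAIP2 gained) and 3 with a pseudocount of 0.1, no variance trend or quantile normalization (SOD2 lost). They were 4 with voom (TNFAIP2 gained, BCL2A1 lost) and 1 with no filter (BIRC3). In knockout cells (1 as reported) they were 5 with at least 1 RPKM in 2 libraries, 3 with the length trend removed and 0 without the variance trend. Between the genotypes under IL-1α and in the interaction, 0 members passed under any of the counted alternatives.

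Over all genes, calls in wild-type cells (28) were 49 with no filter, 100 with the 2-library filter, 48 with median-of-ratios rescaling, 15 with voom, 96 with the length trend removed and 0 to 46 leaving out 1 library. In knockout cells (9) they were 5 with a pseudocount of 1, 65 with no filter, 38 with the 2-library filter, 4 without the variance trend, 2 with voom, 21 with the length trend removed and 0 leaving out any library. In knockout against wild type under IL-1α (20) they were 7 with a pseudocount of 0.1, 0 with no filter or no variance trend, 76 with the 2-library filter, 13 with quantile normalization, 56 with voom, 40 with the length trend removed and 0 leaving out any library. The interaction gave 87 with no filter, none of them members. With no filter and with the 2-library filter the set of genes tested differs; otherwise the cause was not tested.

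Signs near 0 turned. In knockout against wild type under IL-1α, TNFAIP2 was -0.025 with median-of-ratios rescaling, -0.059 with the length trend removed and -0.24 to 0.40 leaving out 1 library. TNIP1 was -0.023, -0.00040 and -0.11 to 0.27, TNFAIP3 -0.39 to 0.25 and TNIP2 -0.17 to 0.0078 in the same fits. In the interaction TNIP2 was -0.076 with rescaling, -0.043 with quantile normalization, -0.21 with the length trend removed and -0.035 to 0.14 leaving out 1 library, and TNFAIP2 was -0.33 to 0.31. Scalings tried after seeing the data put 5 members (median-of-ratios, quantile or length) below wild type in every IL-1α library and 0 above (1 with quantile normalization). BCL2A1 is among the 5 and adds nothing to that count. The same held below for 24.2%, 22.2% and 26% of all genes, and above for 23.1%, 24.9% and 24.7%.

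The IL-1α libraries share replicate numbers across genotypes, but nothing says that a number marks a shared day or culture. Deviations of same-numbered libraries correlated at 0.0086. With the replicate number as a block, 62 genes and 0 members passed between the genotypes under IL-1α. The unstimulated libraries, 1 per genotype, carry no replicate number, and their spread was not measured. At 0 and 10 reads, BCL2A1 before stimulation is limited by depth.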
